A study of Mus musculus with 8 samples.

Results

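The muscleblind genes (Mbnl1, Mbnl2 and Mbnl3) and 4 genes of the STAR family (Khdrbs1, Khdrbs2, Khdrbs3 and Qk) encode RNA-binding proteins that regulate splicing, and they were followed here in the cortex of mice without Nova2. The members were the probe sets of Affymetrix mouse exon arrays that named 1 of these 7 genes and no other. Of 391597 probe sets on the arrays, 114 did so, and they covered 6 of the 7 genes. No probe set was named for Mbnl3, so Mbnl3 was not analysed here. The arrays compared 4 Nova2 knockout (Nova2 KO) mice with 4 wild type mice, all of the CD1 strain at postnatal day 10, with total RNA of the cortex of 1 mouse on each array. The sources used here do not give the part of Nova2 that was deleted or the cell types in which it was lost.

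Muscleblind proteins bind RNA through zinc fingers. They shift exons toward the adult pattern during development, and they are best known from myotonic dystrophy, where expanded repeat RNA traps them. Mbnl2 is the paralog whose loss disturbs splicing most in mouse brain, while Mbnl1 is better known for its part in muscle. STAR proteins bind RNA as dimers through a KH domain with flanking conserved regions. Khdrbs1 encodes Sam68, a target of Src family kinases, Khdrbs2 encodes SLM1 and Khdrbs3 encodes SLM2 (also called T-STAR), and the 3 proteins regulate alternative exons of synaptic genes. Qk encodes quaking, which is abundant in oligodendrocytes and astrocytes and is needed for myelin. Nova2, the factor removed here, is a neuronal splicing regulator of another KH family.

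None of the 6 measured genes passed the test in gene expression, and none of their probe sets passed in exon usage or in signal. The gene value was the median log2 signal over the kept probe sets of a gene, tested with limma as Nova2 KO minus wild type and adjusted over all 11992 genes at a threshold of 0.05. Among all genes, 25 passed (0.208%), 11 higher and 14 lower in Nova2 KO. The 6 members lay evenly, 3 above and 3 below 0 (55.4% of all genes lay above), with a median difference of 0.030 log2, beside 0.022 log2 over all genes. At an unadjusted p under 0.05 there was 1 member of 6, against 11.6% of all genes. The 95% intervals of the single genes, which are not adjusted for the number of genes, reached from a ratio of Nova2 KO over wild type of 0.714 (Mbnl2) to 1.42 (Khdrbs3) at their outer bounds.

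The labels were checked on Nova2 itself, by the probe set with the lowest p among its 16 kept ones. Its signal was 6.28, 7.17, 7.26 and 6.73 log2 on Nova2 KO arrays 1 to 4, against 8.87, 8.65, 8.53 and 8.66 log2 on wild type arrays 1 to 4. Every Nova2 KO array lay below every wild type array at this probe set, with a difference of -1.82 log2 (SE 0.22, limma adjusted p = 0.0786 over all kept probe sets). This difference did not pass, and picking the probe set by its p favours separated groups. The gene value of Nova2 differed by -0.016 log2 (SE 0.11), and there the groups overlapped, so the check is a weak one. The lowest array medians were those of Nova2 KO 4 (7.06 log2) and wild type 4 (7.02 log2), and the other 6 ran from 7.22 to 7.37 log2. These same arrays had the highest shares of values at the floor of the scale, 2.20% in Nova2 KO 4 and 3.34% in wild type 4. Arrays have no read depth, and 4 per group limit the precision. Nothing in the labels says that same-numbered arrays of both groups belong together.

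**Figure D1:**
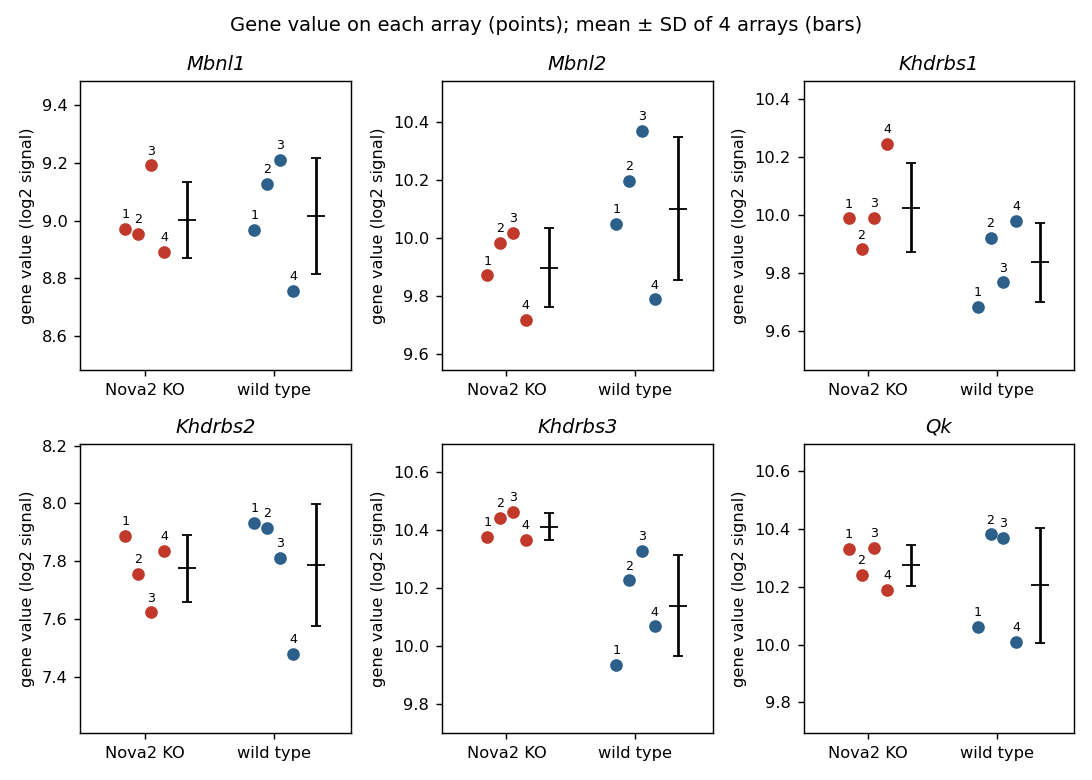
Gene value (log2 signal) of the 6 measured genes on every array, with Nova2 KO arrays left of wild type arrays, array numbers beside the points and mean ± SD over 4 arrays at the right of each group. The groups overlap for Mbnl1, Mbnl2, Khdrbs1, Khdrbs2 and Qk, and for Khdrbs3 the lowest Nova2 KO array (10.37) lies above the highest wild type array (10.33).

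Among the muscleblind genes, Mbnl1 was measured by 21 probe sets, of which 18 had a mean above the filter on dim signal. Its gene value was 8.97, 8.95, 9.19 and 8.89 log2 on Nova2 KO arrays 1 to 4, against 8.97, 9.13, 9.21 and 8.76 log2 on wild type arrays 1 to 4. The groups overlapped over almost their whole range, and the lowest array of each group was number 4. The means were 9.002 ± 0.13 log2 in Nova2 KO and 9.02 ± 0.20 log2 in wild type (SD, n = 4 each). The difference was -0.013 log2 (SE 0.12, limma adjusted p = 0.982), with a 95% interval for the ratio of 0.8289 to 1.18.

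Mbnl2, the brain paralog, was measured by 18 probe sets, all of which were kept. Its gene value was 9.87, 9.98, 10.02 and 9.72 log2 on Nova2 KO arrays 1 to 4, against 10.05, 10.20, 10.37 and 9.79 log2 on wild type arrays 1 to 4. Wild type arrays 1, 2 and 3 lay above every Nova2 KO array, while wild type 4 lay among the Nova2 KO arrays. The difference was -0.20 log2 (SE 0.13, limma adjusted p = 0.576), with a 95% interval for the ratio of 0.714 to 1.05. This size depended on single wild type arrays. Leaving out wild type 4 gave -0.31 log2, and leaving out wild type 3 gave -0.12 log2, and it did not pass in any setting tried.

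Mbnl1, Mbnl2, Qk and, within groups, Khdrbs3 varied with the overall level of the arrays, and Khdrbs1 varied against it. Over the 8 arrays the Pearson correlation of the gene value with the array median was 0.80 for Mbnl1, 0.81 for Mbnl2 and 0.74 for Qk, 0.37 for Khdrbs3, 0.41 for Khdrbs2 and -0.55 for Khdrbs1. After removal of the group means it was 0.80, 0.94 and 0.77 for the first 3 and 0.61 for Khdrbs3, 0.41 for Khdrbs2 and -0.67 for Khdrbs1. Mbnl1 correlated with Mbnl2 at 0.82 and with Qk at 0.82, and after removal of the group means at 0.92 and 0.86. Khdrbs3 correlated with Qk at 0.70, with Mbnl1 at 0.40 and with Mbnl2 at -0.0041, and after removal of the group means at 0.83, 0.69 and 0.72. The correlation of Mbnl2 with Khdrbs1 was -0.71, and -0.59 after removal of the group means. These are descriptions over arrays that share their overall level, and arrays numbered 4 hold much of the range. With the array median as a covariate the differences of Mbnl2 and Khdrbs3 were -0.20 log2 (adjusted p = 0.236) and 0.27 log2 (adjusted p = 0.154) and did not pass.

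Among the Sam68 group, Khdrbs1 (Sam68) was measured by 19 probe sets, 18 of them kept. Its gene value was 9.99, 9.88, 9.99 and 10.24 log2 on Nova2 KO arrays 1 to 4, against 9.68, 9.92, 9.77 and 9.98 log2 on wild type arrays 1 to 4. Wild type 1 and 3 lay below every Nova2 KO array, and wild type 2 and 4 lay within the Nova2 KO range. The difference was 0.19 log2 (SE 0.11, limma adjusted p = 0.54), with a 95% interval for the ratio of 0.965 to 1.35. In both groups the array numbered 4 was the highest, which is the reverse of its place for Mbnl1 and Mbnl2. Of the 18 kept probe sets, 15 were higher in Nova2 KO and 3 were lower, and they read the same gene and so are not replicates.

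Khdrbs2 (SLM1) was measured by 14 probe sets, 13 of them kept. Its gene value was 7.89, 7.76, 7.62 and 7.84 log2 on Nova2 KO arrays 1 to 4, against 7.93, 7.92, 7.81 and 7.48 log2 on wild type arrays 1 to 4. The wild type arrays spanned the Nova2 KO arrays on both sides. The difference was -0.0099 log2 (SE 0.12, limma adjusted p = 0.988), with a 95% interval for the ratio of 0.830 to 1.19. Its sign changed between settings, as it did for Mbnl1.

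Khdrbs3 (SLM2) was the member with the lowest p. Its 17 probe sets were all kept, and its gene value was 10.38, 10.44, 10.46 and 10.37 log2 on Nova2 KO arrays 1 to 4, against 9.93, 10.23, 10.33 and 10.07 log2 on wild type arrays 1 to 4. Each Nova2 KO array lay above each wild type array (1 of 6 members without overlap), and the Nova2 KO arrays were closer together (SD 0.048, n = 4) than the wild type arrays (SD 0.17, n = 4). The Nova2 KO SD was also the smaller in Mbnl1, Mbnl2, Khdrbs2 and Qk (0.071 against 0.20 for Qk), but not in Khdrbs1. In 7.56% of all genes the groups did not overlap, 5.06% with Nova2 KO higher and 2.50% with Nova2 KO lower. The difference was 0.27 log2 (SE 0.11, unadjusted p = 0.0232, limma adjusted p = 0.339), with a 95% interval for the ratio of 1.03 to 1.42. In all, 817 genes had a p this low or lower. Leaving out single arrays gave 0.20 log2 (without wild type 1) to 0.34 log2 (without wild type 3), and no setting gave a call.

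Qk, the quaking gene, was measured by 25 probe sets, all kept. Its gene value was 10.33, 10.24, 10.34 and 10.19 log2 on Nova2 KO arrays 1 to 4, against 10.06, 10.38, 10.37 and 10.01 log2 on wild type arrays 1 to 4. The wild type arrays split into a higher pair (2 and 3) and a lower pair (1 and 4), with all Nova2 KO arrays between them. The difference was 0.069 log2 (SE 0.11, limma adjusted p = 0.853), with a 95% interval for the ratio of 0.887 to 1.24. Of the 25 probe sets, 5 carried the older symbol 1110003F05Rik, which the mouse gene table of RefSeq (assembly GRCm38.p6) lists as a synonym of Qk. These 5 were dim, with wild type means of 6.71 to 7.82 log2. All 5 were higher in Nova2 KO, by 0.16 to 0.47 log2, and taken as a gene of their own they differed by 0.41 log2 (SE 0.24, limma adjusted p = 0.553). The 20 probe sets that carried the symbol Qk, 13 higher and 7 lower, gave a gene value difference of -0.0023 log2 (SE 0.099, limma adjusted p = 0.995).

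**Figure D2:**
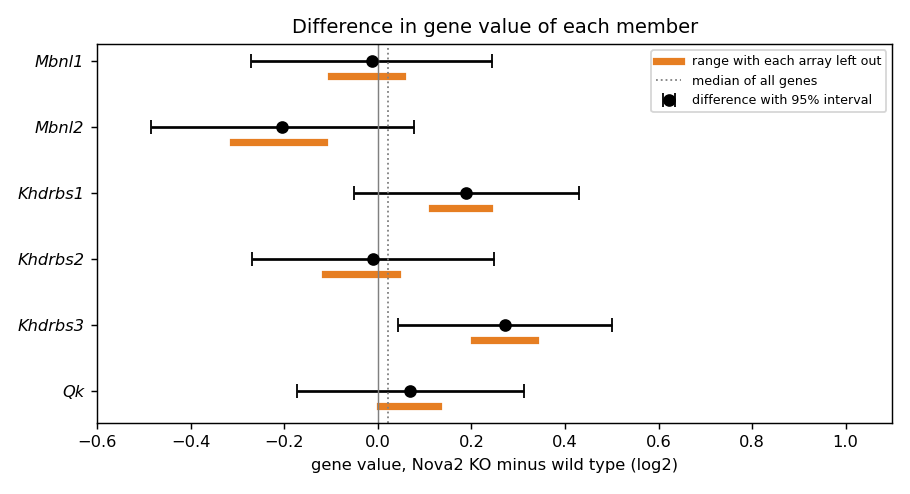
Difference in gene value (Nova2 KO minus wild type, log2) of each gene, with black bars for the 95% interval of the fit and orange bars for the range when each of the 8 arrays was left out in turn (dotted line, median of all genes). The interval of Khdrbs3 (0.044 to 0.50) lies above 0 and the other 5 include 0, and none passed after adjustment over all genes.

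Because quaking and myelin are tied, markers of other cell types were read beside these values. Of 12 measured oligodendrocyte and myelin markers, 11 lay lower in the Nova2 KO mean (list median -0.36 log2). Of all genes, 55.4% lay higher. Among these markers 2 passed, against 0.208% of all genes, and both fell. They were Mog (-0.77 log2, SE 0.13, limma adjusted p = 0.0301) and Mal (-1.03 log2, SE 0.16, limma adjusted p = 0.0251). Whether these 2 calls hold in the other settings was not examined, and the number of genes called varied between settings. Mag and Mobp, at -0.64 and -0.58 log2, did not pass. Cldn11, Cnp, Gpr17 and Mbp lay at -0.50 to -0.34 log2 and did not pass either. Olig1, Olig2, Sox10 and Pdgfra differed little, by -0.11, -0.0075, 0.046 and -0.10 log2 (limma adjusted p = 0.732 to 0.99). The list mean per array was 8.76 to 8.99 log2 in Nova2 KO and 9.16 to 9.29 log2 in wild type, without overlap. Among single genes, 2.50% had all Nova2 KO arrays below all wild type arrays. The marker lists were chosen with earlier results of these data known, so their counts and separation are not an independent test. Astrocyte and radial glia markers, the other cells rich in quaking, had means of 10.25 to 10.46 log2 in Nova2 KO and 10.26 to 10.40 log2 in wild type (9 measured, median -0.0084 log2). Markers of cortical excitatory neurons were measured for 7 of 8 genes, at means of 9.81 to 10.04 log2 in Nova2 KO and 9.84 to 9.96 log2 in wild type. Over the 9 lists other than oligodendrocytes, which also covered interneurons, microglia, vessels, blood, choroid plexus, neighbouring regions and sex-linked genes, 0 of 42 measured genes passed with limma, and 7 had an unadjusted p under 0.05, against 11.6% of all genes. The sex-linked genes split the arrays within both groups. Xist, which is expressed from the inactive X chromosome of females, was at 10.19 to 11.04 log2 on Nova2 KO 2 and 4 and wild type 1 and 4, and at 4.59 to 5.24 log2 on the other 4 arrays, while the Y-linked Eif2s3y and Kdm5d were high on those other 4. Each group thus held 2 arrays of either kind, and the part of sex in the values of the members was not tested. The part of the oligodendrocyte markers in the Qk value was not tested. In whole cortex, fewer cells of a type and less RNA per cell cannot be told apart.

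Exon usage was read from an index, in which the gene value of an array was subtracted from the log2 signal of each probe set. A higher index in a group means more signal there relative to the gene value, and an index below 0 means signal under the gene value. Of 109 kept probe sets of the members, none passed in the index (limma, adjusted over all indexed probe sets), against 0.0134% of all. At an unadjusted p under 0.05 there were 6 of 109, and 6.77% over all indexed probe sets. The groups did not overlap for 1 of 109, which was lower in Nova2 KO, against 4.12% over all, 2.07% higher and 2.05% lower. The index mean was above that of wild type at 49.8% of all indexed probe sets. No member probe set differed by 1 log2 or more in the index, and 4 differed by 0.5 log2 or more. Combined per gene by the Simes method, which takes the probe sets of a gene together, 0 of 6 members passed and none had an unadjusted p under 0.05, against 0.161% and 8.39% of all genes. The median absolute index difference was 0.093 log2 over the members and 0.12 log2 over all indexed probe sets. Which exon each probe set covers was not analysed here, so no probe set is tied to a named exon or isoform.

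The index difference with the lowest p was in Khdrbs3. For probe set 4384999 the index was -0.55, -0.49, -0.74 and -0.70 on Nova2 KO arrays 1 to 4, against -0.020, -0.27, -0.39 and -0.31 on wild type arrays 1 to 4. All Nova2 KO arrays lay below all wild type arrays in the index, which differed by -0.37 log2 (SE 0.11, limma adjusted p = 0.64). The signal itself differed by only -0.099 log2 (SE 0.12). Probe set 4690603 went the other way, with an index difference of 0.58 log2 (SE 0.20, limma adjusted p = 0.683). Its signal was 6.62, 6.89, 6.82 and 6.92 log2 on Nova2 KO arrays 1 to 4, against 5.59, 6.66, 5.78 and 5.83 log2 on wild type arrays 1 to 4. Only wild type 2 reached the Nova2 KO arrays there, and the probe set was the dimmest of the gene. Without wild type 2 the index difference was 0.78 log2 and the signal difference 1.08 log2, against 0.85 log2 with all arrays, and neither passed (adjusted p = 0.43 and 0.317).

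In Qk the lowest p was at probe set 4535966. Its index was 0.12, 0.39, 0.10 and 0.049 on Nova2 KO arrays 1 to 4, against 0.50, 0.37, 0.58 and 0.50 on wild type arrays 1 to 4. The groups touched through Nova2 KO 2 and wild type 2, and the difference was -0.32 log2 (SE 0.10, limma adjusted p = 0.661). The second Qk probe set, 4406428, one of those under the older symbol, differed by 0.40 log2 in the index (SE 0.18) and by 0.47 log2 in signal. In Mbnl2 the index of probe set 4849027 differed by 0.31 log2 (SE 0.12, adjusted p = 0.704), while its signal differed by 0.11 log2. Its index was near 0 on Nova2 KO arrays 1, 2 and 3 and was -0.38 on Nova2 KO 4, inside the wild type range of -0.54 to -0.28.

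The other probe sets taken by the same rule, the 2 with the lowest p of each gene, showed smaller or less certain differences. In Mbnl1 the index differed by -0.24 log2 (SE 0.11) at probe set 4388031 and by -0.25 log2 (SE 0.20) at 4357388. In Mbnl2 it differed by 0.45 log2 (SE 0.21) at 5033062. In Khdrbs1 it differed by 0.33 log2 (SE 0.14) at 4646833 and by -0.25 log2 (SE 0.13) at 4809076. In Khdrbs2 it differed by 0.46 log2 (SE 0.20) at 4394631 and by 0.22 log2 (SE 0.11) at 4764095. Their adjusted p ran from 0.738 to 0.845, and the index overlapped between the groups in each of these 7.

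**Figure D3:**
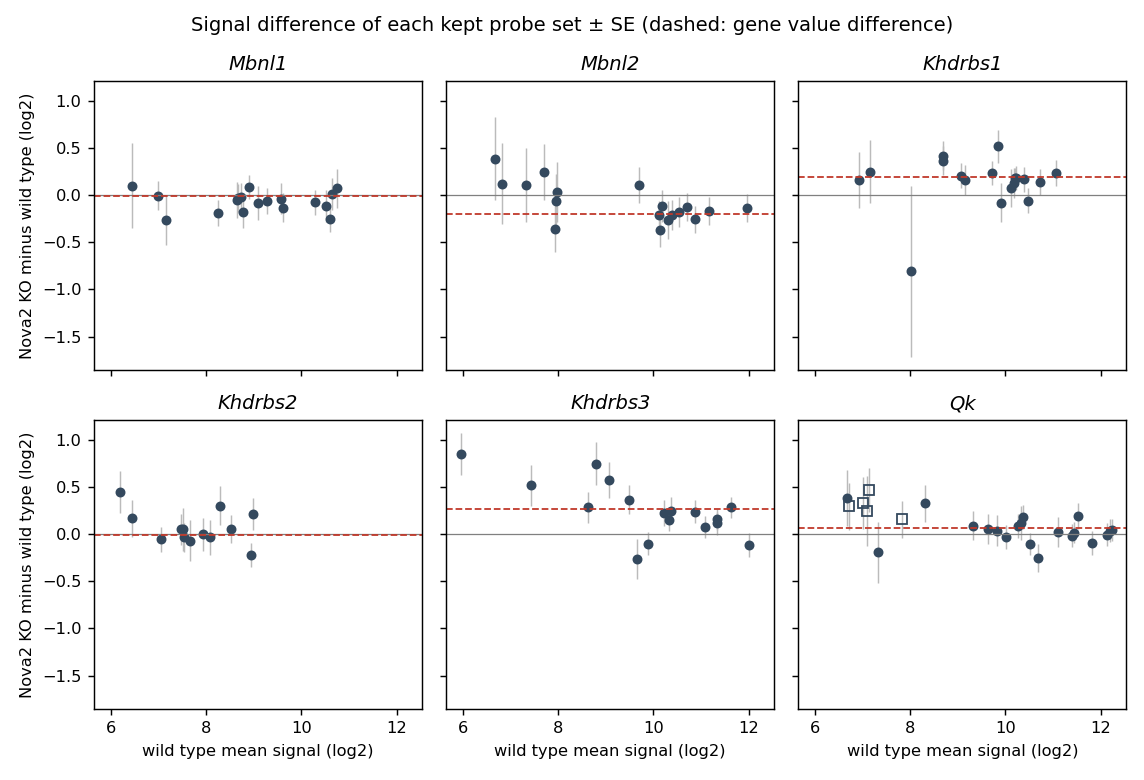
Signal difference of each kept probe set (Nova2 KO minus wild type, log2, ± SE) against its wild type mean signal, with 1 panel per gene, a dashed line at the gene value difference and open squares for the 5 Qk probe sets under the older symbol. Khdrbs3 points lie mostly above 0 (14 of 17), Mbnl1 points lie close to 0, and the low Khdrbs1 point with the long bar is probe set 4763925.

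In the signal of single probe sets, none of the 109 passed, against 0.00681% of all 293697 kept probe sets. Of all kept probe sets, 10 passed higher and 10 lower in Nova2 KO. These counts were 32 and 53 with median centring, and 29 and 57 with quantile normalization. There were 9 of 109 at an unadjusted p under 0.05, against 6.68% of all, and all 9 were in Khdrbs1 and Khdrbs3. In all, 65 of 109 were higher and 44 lower, and 51.1% of all were higher. The groups did not overlap for 6 of 109, against 5.10% of all, 3.05% higher and 2.04% lower. All 6 lay higher in Nova2 KO, 4 in Khdrbs3 and 2 in Khdrbs1. Of Khdrbs3 probe sets, 14 were higher and 3 were lower, from -0.26 to 0.85 log2. Those of Mbnl1 ran from -0.26 to 0.10 log2, with 4 higher and 14 lower. In Mbnl2, the dim probe sets, with a mean below 8 log2 over the 8 arrays, had a median difference of 0.11 log2 (5 of 7 higher). The brighter ones had -0.18 log2 (1 of 11 higher). The dim median also lay above the bright one in Khdrbs3 (0.68 over 2 dim probe sets, against 0.23 log2) and Qk (0.30 against 0.038 log2). The same held for Mbnl1 (-0.0059 against -0.062 log2), but not for Khdrbs1 or Khdrbs2.

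Within Khdrbs3 the size of the signal difference was not even along the probe sets. Probe set 5595735 read 9.72, 9.01, 10.11 and 9.32 log2 on Nova2 KO arrays 1 to 4, against 8.997, 8.75, 8.82 and 8.61 log2 on wild type arrays 1 to 4. The Nova2 KO arrays were spread over more than 1 log2 and still lay above all wild type arrays (difference 0.75 log2, SE 0.23, adjusted p = 0.666). Probe set 4481137 differed by 0.58 log2 (SE 0.19), with Nova2 KO arrays 1 and 3 high at 9.82 and 10.05 log2, and 9.45 log2 on Nova2 KO 4 and 9.29 log2 on Nova2 KO 2 closer to the wild type range of 8.84 to 9.33 log2. The bright probe set 5607090 read 11.84, 11.91, 12.01 and 11.90 log2 on Nova2 KO arrays 1 to 4, against 11.65, 11.75, 11.57 and 11.56 log2 on wild type arrays 1 to 4. There the arrays were close together and the difference was 0.29 log2 (SE 0.11). The brightest probe set, 4605426, differed by -0.11 log2 (SE 0.13). These 4 probe sets, apart from the rule above, were chosen after their values were seen.

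**Figure D4:**
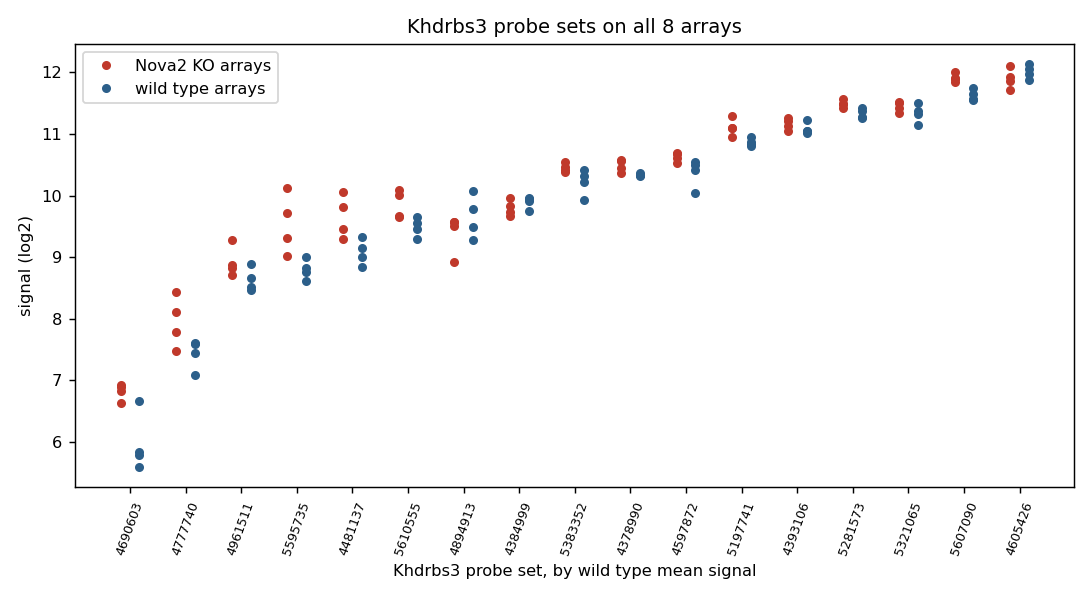
Signal (log2) of the 17 Khdrbs3 probe sets on the 4 Nova2 KO arrays and the 4 wild type arrays, ordered by wild type mean signal. The groups do not overlap at 4 probe sets (5595735, 5610555, 5281573 and 5607090), and the widest gaps between the group means lie among the dimmer probe sets.

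Khdrbs1 probe set 4763925, also chosen after its values were seen, had the widest spread of all member probe sets within a group. It read 8.09, 8.57, 8.14 and 4.02 log2 on Nova2 KO arrays 1 to 4, against 7.92, 8.63, 8.39 and 7.10 log2 on wild type arrays 1 to 4. On Nova2 KO 4 it was near the floor of the scale, and on wild type 4 it was below the other wild type arrays. The signal difference of -0.81 log2 (SE 0.90) was 0.25 log2 without Nova2 KO 4. The 5 probe sets that did not pass the filter on dim signal, 3 of Mbnl1 and 1 each of Khdrbs1 and Khdrbs2, had means of 4.53 to 5.84 log2 over the 8 arrays.

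Transcripts regulated by these proteins were read next, from lists drawn up from general knowledge of mouse and human work. The lists were chosen with earlier results of these data known, so their counts are not an independent test. In gene value, 0 of 13 measured muscleblind targets, 0 of 10 Sam68 and SLM targets, 0 of 8 quaking targets and 0 of 12 modifiers, relatives and counterparts passed with limma. At an unadjusted p under 0.05 there were 2, 0, 3 and 2 of them in that order, against 11.6% of all genes. Hnrnpa1 is on both the quaking list and the last list and was counted in each. The list medians were -0.015, 0.00068, -0.069 and 0.091 log2, beside 0.022 log2 over all genes. In exon usage by the Simes method 2 of 13 muscleblind targets passed, and 0 of 10, 0 of 8 and 0 of 11 on the other lists, against 0.161% of all genes. The count of 2 was 0 with the replicate number as a block or without both arrays numbered 4, and 0 or 1 without any single array. At an unadjusted Simes p under 0.05 there were 3, 3, 1 and 1 in the same order, against 8.39% of all genes.

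The muscleblind targets that passed in exon usage were Grin1, the obligatory subunit of NMDA receptors, and Kcnma1, the BK potassium channel. The leading Grin1 probe set had an index of -0.17, -0.20, -0.26 and -0.21 on Nova2 KO arrays 1 to 4, against -1.57, -1.48, -1.36 and -1.58 on wild type arrays 1 to 4. The arrays of a group lay close together and the groups were more than 1 log2 apart (limma adjusted p = 0.00483). The leading Kcnma1 probe set had an index of -1.86, -2.06, -1.97 and -2.21 on Nova2 KO arrays 1 to 4, against -0.897, -0.906, -0.911 and -0.784 on wild type arrays 1 to 4. Again the groups did not overlap (limma adjusted p = 0.0147), as at 4.12% of all indexed probe sets. By the Simes method the adjusted p was 0.00958 for Grin1 and 0.0289 for Kcnma1. The call of Grin1 was lost in 6 of 21 other settings: with the replicate number as a block (adjusted p = 0.287), without both arrays numbered 4 (0.273), and without Nova2 KO 1, Nova2 KO 4, wild type 1 or wild type 3 (0.0542 to 0.0644). The call of Kcnma1 was lost in 13 of 21, among them the block (adjusted p = 0.42) and the omission of any single array (0.0826 to 0.199). The gene values of Grin1 (-0.18 log2) and Kcnma1 (-0.17 log2) did not pass.

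Other muscleblind targets with low p in gene value were Mapt, which encodes the microtubule protein tau, at 0.44 log2 (SE 0.12, limma adjusted p = 0.236), and Limch1 at 0.30 log2 (SE 0.10, adjusted p = 0.295). All 4 Nova2 KO arrays lay above all 4 wild type arrays for both, as in 5.06% of all genes. Both were picked for their low p, which favours such separation. Ldb3, better known from muscle, was at -0.20 log2 (SE 0.11). Among Sam68 and SLM targets, the lowest p were those of Lysmd4 (0.20 log2, SE 0.11), the cyclin gene Ccnd1 (-0.17 log2, SE 0.098) and the adhesion receptor gene Cd44 (0.16 log2, SE 0.12), with adjusted p of 0.499 to 0.624. The lowest exon usage p of that list was that of Stxbp5l, which encodes the SNARE-binding protein tomosyn-2 and was chosen after its values were seen (limma with the Simes method, adjusted p = 0.387). The index of its leading probe set was -0.43, -0.11, -0.12 and -0.21 on Nova2 KO arrays 1 to 4, against 0.45, 0.43, 0.39 and 0.66 on wild type arrays 1 to 4. The groups did not overlap there, as at 4.12% of all indexed probe sets. The difference was -0.70 log2 (SE 0.11, limma adjusted p = 0.241). Nrxn3, which encodes a synaptic adhesion protein and is given for its role, had a gene value difference of -0.029 log2 (SE 0.14), and its exon usage did not pass (adjusted p = 0.585).

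Quaking targets included the myelin genes Mag and Mbp, which are also on the oligodendrocyte list. Mag read 8.31, 7.99, 8.60 and 7.90 log2 on Nova2 KO arrays 1 to 4, against 8.84, 8.73, 8.83 and 8.98 log2 on wild type arrays 1 to 4. All Nova2 KO arrays lay below all wild type arrays, as in 2.50% of all genes. The difference was -0.64 log2 (SE 0.14, limma adjusted p = 0.143). Mbp was at -0.34 log2 (SE 0.13, adjusted p = 0.33). Hnrnpa1, a splicing repressor whose mRNA quaking binds, was at 0.33 log2 (SE 0.096, adjusted p = 0.257). All Nova2 KO arrays lay above all wild type arrays for Hnrnpa1, as in 5.06% of all genes. Among proteins that act on the STAR factors, the ubiquitin ligase gene Siah1a was at 0.24 log2 (SE 0.11, adjusted p = 0.415) and Prmt1, a methyltransferase for which Sam68 is a substrate, at 0.21 log2 (SE 0.10, adjusted p = 0.448). Given for their roles rather than their p, Sf1, a STAR relative that recognises the branch point, was at 0.079 log2 (SE 0.12), and Celf1, the usual counterpart of muscleblind in myotonic dystrophy, at -0.012 log2 (SE 0.12).

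**Figure D5:**
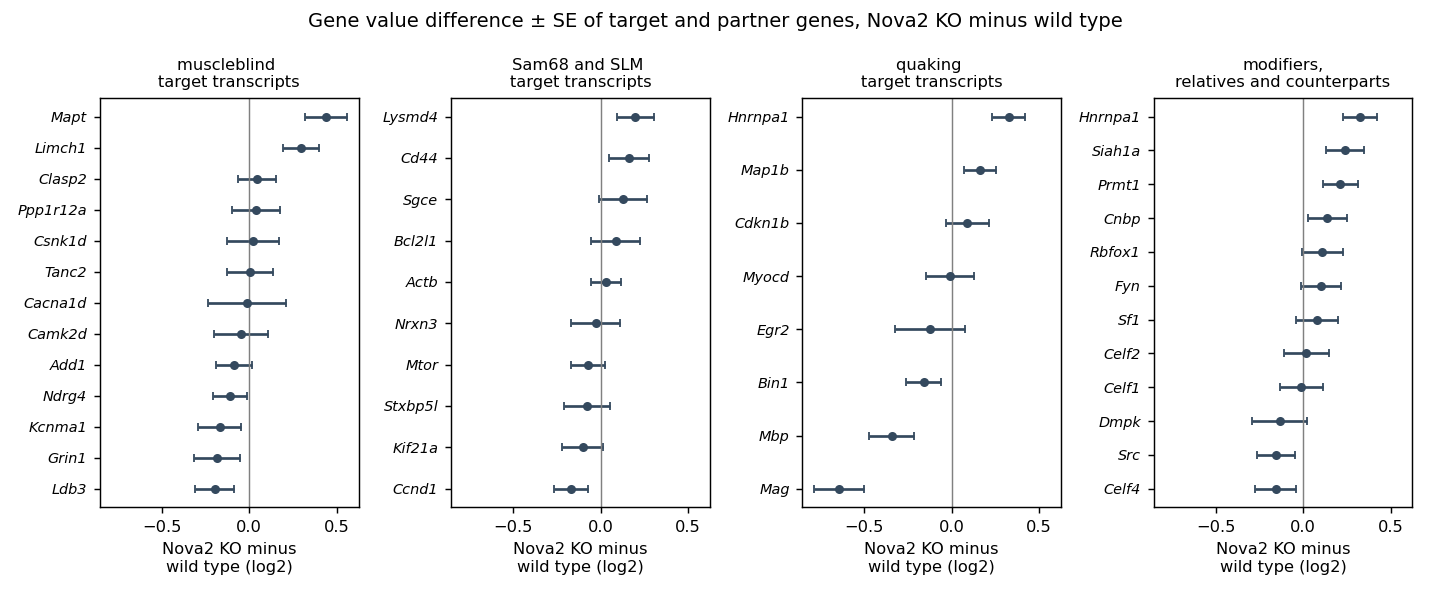
Gene value difference (Nova2 KO minus wild type, log2, ± SE) of the measured genes on the 4 lists of targets and partners. No gene passed the test in gene value, and the largest differences were those of Mag (-0.64) and Mapt (0.44).

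For each member the measured gene with the most similar pattern over the 8 arrays was named by its Pearson correlation, as a description without a test. These were Kcnh2 for Mbnl1 (0.97), Hectd3 for Mbnl2 (0.98), Gdi2 for Khdrbs1 (0.98), A930006K02Rik for Khdrbs2 (0.99), 1700086L19Rik for Khdrbs3 (0.98) and Lrrc58 for Qk (0.97). None of these 6 genes passed in gene value. Each was picked as the highest correlation among all measured genes over only 8 arrays, which favours high values. The part of the array level in these correlations was not tested.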

How the data were processed

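Total RNA of 8 cortices was measured on Affymetrix mouse exon arrays, 1 array per mouse. The deposited values are log2 signals of 391597 probe sets. Per the submitters' processing notes they were made with PLIER. Neither its version nor the background correction, normalization or genome build behind it could be read from the labels. On each array the lowest value was 4, which an offset of 16 under the logarithm would give. Values were used as deposited. The platform annotation named 228454 probe sets for 1 gene, 3443 for several and 159700 for none; of 13017 symbols, 10783 were current, 2203 were updated through a synonym of the RefSeq genes (assembly GRCm38.p6) and 31 were kept as given. A probe set that named several genes was not used for a gene.

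Probe sets with a mean above the 25th percentile (5.86 log2) were kept. A gene value needed 3 kept probe sets and the index 5, and 307 probe sets whose index had no variance were not tested. R 4.3.3 with limma 3.58.1 (lmFit and eBayes, two-sided, Benjamini-Hochberg) was run on each measure. The signal was adjusted over all 293697 kept probe sets, the index over 194707 tested probe sets and the gene value over 11992 genes. The code was tested on simulated data. Figures used matplotlib 3.10.9 under Python 3.11.15. The alternatives were other normalizations, filters, summaries, offsets and spread estimates, arrays left out, the replicate number as a block, diffSplice and, chosen after seeing the data, platform symbols without synonyms. The members, the target, partner and marker lists and the tests were chosen with earlier results of these data known. The rule named all members, the 2 probe sets of each with the lowest p in the index, up to 3 genes per target or partner list with the lowest p or past the threshold, and the gene most like each member. Whether the mice of a group were independent litters is not given, so p-values measure the spread between these mice.

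No sequences are shown, since the position of the probe sets was not used here.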

Additional observations from a re-analysis of the deposited data

Results flagged for a closer look

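In 4 groups of 4 arrays, 1 array stood apart from the other 3 by Dixon's criterion, of 96 groups of named values examined; chance alone flags about 1 in 20. On Nova2 KO 4, Khdrbs1 probe set 4763925 had a signal of 4.02 log2, while the other Nova2 KO arrays ran from 8.09 to 8.57 log2. The same array was low for Grin1, with a gene value of 10.13 log2 beside 10.52 to 10.58 log2 on the other Nova2 KO arrays, and with a signal of 9.92 log2 beside 10.31 to 10.38 log2 at probe set 4423042. On wild type 4 the index of Kcnma1 probe set 5193338 was -0.784, and it was -0.911 to -0.897 on the other wild type arrays. Both arrays numbered 4 had the lowest medians of their groups, and the part of the array level in these values was not tested.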

How the results depend on the processing

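No member passed in gene value, index or signal under any alternative run; the lowest adjusted p was 0.15 for gene value (Khdrbs3, replicate block), 0.259 for signal and 0.0522 for the index (Khdrbs3 probe set 4690603, 0.63 log2 with diffSplice). Small differences changed sign: Khdrbs2 was at 0.0075 log2 with the filter at the 50th percentile, 0.068 with the mean over probe sets and -0.11 to 0.041 with single arrays left out, Mbnl1 at -0.0997 to 0.052 with single arrays left out, and Qk at -0.0023 without synonyms. Prmt1 was at -0.12 log2 without a filter. With single arrays left out, the signal ran from -0.0030 to 0.26 log2 at Mbnl2 probe set 4849027 and from -1.26 to 0.25 at Khdrbs1 probe set 4763925 (index -1.501 to 0.14); at Khdrbs1 probe set 4809076 it was 0.018 without both arrays numbered 4. The cause was not tested.

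Whole-table counts moved more. Genes passing in gene value numbered 25, but 13 with median centring, 54 with the array median as a covariate, 80 with the replicate number as a block, 11 without both arrays numbered 4 and 6 to 16 with single arrays left out. Index probe sets numbered 26, but 15 without a filter, 43 with the mean over probe sets, 4 with the block, 2 without both arrays numbered 4, 506 with diffSplice and 10 to 17 with single arrays left out. Genes by Simes numbered 18, but 11, 3, 0 and 425 without a filter, with the block, without both arrays numbered 4 and with diffSplice, and 0 to 13 with single arrays left out. Signal probe sets numbered 20, but 85 with median centring, 86 with quantile normalization, 184 with the covariate, 88 with the filter at the 50th percentile, 6 without a filter and with offset 1, 165 with trend and robust, 7 with the block, 2 without both arrays numbered 4 and 0 to 9 with single arrays left out. Muscleblind targets in exon usage numbered 2, but 1 with the covariate, without a filter and with trend and robust, 0 with the block and without both arrays numbered 4, and 0 to 1 with single arrays left out. With diffSplice 1 Sam68 and SLM target and 1 quaking target passed. The labels do not say that same-numbered arrays belong together. The correlations of their deviations from the group means were 0.14, 0.33, 0.024 and 0.57 for numbers 1 to 4, so 1 of 4 pairs was under 0.1. Nova2 KO 2 and 4 correlated best with their own number, while Nova2 KO 1 correlated best with wild type 2 (0.17) and Nova2 KO 3 with wild type 4 (0.063). Both arrays numbered 4 also had the lowest array medians, so pairing and shared array level cannot be told apart here. What these correlations reflect was not tested.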
